A study of Mus musculus with 9 samples.

Results

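Haptoglobin and 9 other secreted proteins of innate defence were examined in the submandibular gland (SMG) of male mice. The 10 genes, Hp, Lcn2, Ltf, Lyz2, Slpi, Wfdc2, Wfdc18, Pglyrp1, Saa3 and C3, were taken by symbol from the deposited expression table and by Ensembl identifier from the raw counts, out of 48709 genes listed in all. They were selected on values of the same comparison of genotypes that is described here, so their levels and differences are given as a description and no test is drawn from them. Of the 10, 9 had a row in the normalized table, 8 carried enough counts to enter the fit over all genes, and Ltf and Saa3 were too low for it.

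RNA was sequenced from 4 wildtype (WT) and 5 double knockout (DKO) SMGs of adult males, with 1 library per gland. DKO mice lack Hs3st3a1 and Hs3st3b1, which encode enzymes that add 3-O-sulfate to heparan sulfate. On a C57BL/6 background, they carry a knockout allele of Hs3st3b1 together with a frameshift deletion that zinc finger nucleases made in exon 1 of Hs3st3a1, and WT animals were littermates. The DKO strain derives from several founders, and which founder each library came from, the age of each mouse and any treatment were not given in the sources used here. The female libraries were not analysed here.

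Glands that open onto a mucosa release proteins that starve, bind or lyse microbes. Haptoglobin captures free haemoglobin, lipocalin 2 binds the siderophores with which bacteria take up iron, and lactoferrin binds iron itself. Lysozyme cleaves peptidoglycan, Pglyrp1 recognises it, complement C3 tags microbes, and proteins with a whey acidic protein (WAP) domain inhibit proteases. Hp, Lcn2, Saa3 and C3 are also acute phase genes, which inflammatory cytokines induce through transcription factors of the NF-kB, STAT and C/EBP families.

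Total counts were 20653492 to 37870519 in WT and 17053747 to 34683690 in DKO, and pairs of libraries correlated at 0.948 to 0.986 on the log2 scale. Hs3st3a1 had 3 to 14 counts in WT and 0 in every DKO library, and Hs3st3b1 had 67 to 216 counts in WT and 7 to 45 in DKO. The neomycin sequence of the knockout cassette had 0 counts in WT and 10 to 34 in DKO. As read counts normalised to library size (CPM), 13 acinar marker genes summed to 241000 to 354000 in WT. In DKO they summed to 371000 to 650000 CPM, without overlap on the TMM scale. Most of this was Mucl2, Car6, Prol1 and Pip, at means of 146000, 71600, 45900 and 23200 CPM in WT. All 13 log2 fold changes were positive, and DESeq2 called 5 higher, beside 1.77% of all genes tested. For 4 of the 13, every DKO library was above every WT library, beside 2.49% of all genes. The 16 duct markers summed to 14200 to 17300 CPM in WT and 13400 to 14200 CPM in DKO. That sum was mostly Egf, at 3520 to 8260 CPM in WT and 377 to 2690 CPM in DKO, and Klk1, at 5370 to 10200 and 9350 to 11900 CPM, which moved in opposite directions. DESeq2 called 5 duct markers lower, Egf, Krt7, Krt19 and Muc13 among them, and 1 higher, Klk1. Of all genes, it called 2.68% lower and 1.77% higher. For 5 duct markers every DKO library was under every WT library, beside 3.51% of all genes. These marker levels moved with genotype alongside each difference below, and their part in those differences was not tested. DKO 1 and DKO 3 stood apart from the other libraries. DKO 1 held 8110 CPM of parotid and sublingual markers, mostly Bpifa2. The sum was 68.7 to 100 CPM in the other DKO libraries and 27.9 to 61.6 CPM in WT. Every DKO library was thus above every WT library on the TMM scale. DKO 3 had the lowest Egf.

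Promoter sequence was found for 9 of the 10 genes in RefSeq (GRCm38.p6). The missing gene was Hp, so its promoter was not searched for any of the letters below. Of the 9 promoters, 4 are shown because the data set these genes apart. Lcn2 had the largest drop in DKO, Wfdc18 the highest level, and C3 and Pglyrp1 are induced genes whose genotypes overlapped. Each line gives the 250 bases before the transcription start, 5′ to 3′ on the strand of the gene, and capitals mark the matches named after the sequences. The windows lie at chr2:32387740-32387989 (minus strand) for Lcn2, chr11:83708754-83709003 (plus) for Wfdc18, chr17:57228137-57228386 (minus) for C3 and chr7:18884440-18884689 (plus) for Pglyrp1.
Lcn2: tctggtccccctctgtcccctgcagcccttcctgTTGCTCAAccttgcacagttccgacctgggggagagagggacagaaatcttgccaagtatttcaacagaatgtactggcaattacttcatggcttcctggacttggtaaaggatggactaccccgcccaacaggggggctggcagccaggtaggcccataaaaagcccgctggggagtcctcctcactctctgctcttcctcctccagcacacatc
Wfdc18: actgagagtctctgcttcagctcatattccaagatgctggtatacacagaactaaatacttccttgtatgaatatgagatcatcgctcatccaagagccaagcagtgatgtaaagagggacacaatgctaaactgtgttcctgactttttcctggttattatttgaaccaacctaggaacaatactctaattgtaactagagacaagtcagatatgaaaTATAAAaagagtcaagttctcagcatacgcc
C3: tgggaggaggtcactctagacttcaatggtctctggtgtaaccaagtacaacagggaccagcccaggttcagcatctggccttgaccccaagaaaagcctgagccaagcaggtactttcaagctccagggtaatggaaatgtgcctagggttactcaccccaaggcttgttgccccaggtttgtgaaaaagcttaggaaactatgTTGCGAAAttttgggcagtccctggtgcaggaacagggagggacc
Pglyrp1: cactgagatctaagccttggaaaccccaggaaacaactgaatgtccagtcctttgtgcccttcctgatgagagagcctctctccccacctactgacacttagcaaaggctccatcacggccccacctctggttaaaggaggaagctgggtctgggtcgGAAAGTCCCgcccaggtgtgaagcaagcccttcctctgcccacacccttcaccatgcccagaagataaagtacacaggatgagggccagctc
Lcn2 and C3 each held 1 match to the C/EBP letters TTGCNNAA, Wfdc18 held 1 TATA box (TATAAA), which began 31 bases before its start (position -31), and Pglyrp1 held 1 match to the NF-kB letters GGGANTTTC. Matches were counted on both strands and none overlapped another. Over the 9 promoters, TTGCNNAA was present in 5 (Lcn2, Ltf, Slpi, Saa3 and C3), TATAAA in 1 and GGGANTTTC in 1, whereas the STAT letters TTCNNNGAA and the steroid receptor letters TGTTCT were in 0. Among all 32536 distinct RefSeq windows of this length, the shares with a match were 9.57% for TTGCNNAA, 12.3% for TATAAA, 0.944% for GGGANTTTC, 7.04% for TTCNNNGAA and 16% for TGTTCT. These matches describe letters in a window and do not show binding. The C/EBP letters were in both Lcn2, which was lower in DKO, and C3, whose genotypes overlapped. A link between letters and genotype was not tested.

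The 10 genes spanned a wide range of levels in the WT gland. Divided by the length of the exons of each gene, the order of mean CPM per kilobase in WT was Wfdc18 (82.1 ± 44.5, SD, n = 4), Lyz2 (50.8 ± 12.3), Hp (21.0 ± 2.22), Wfdc2 (18.8 ± 2.44), Lcn2 (7.99 ± 4.89), Pglyrp1 (2.85 ± 1.61), C3 (1.32 ± 0.264), Slpi (0.346 ± 0.16), Saa3 (0.0179 ± 0.0213) and Ltf (0.00277 ± 0.00554). WT ranges overlapped between the neighbours Wfdc18 and Lyz2, between Hp and Wfdc2, between Lcn2 and Pglyrp1, and between Saa3 and Ltf, so that these pairs were not separated beyond their spread. Wfdc18 lay above 98.1% of the genes tested on this scale, Hp above 91.6%, Lcn2 above 80.2% and C3 above 44.5%. In DKO the mean of Hp fell to 11.1 ± 2.05 CPM per kilobase (SD, n = 5), below Wfdc2 at 20.6 ± 3.34, and Lcn2 stood at 1.35 ± 0.515, within the range of C3 at 1.39 ± 0.74.

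**Figure D1:**
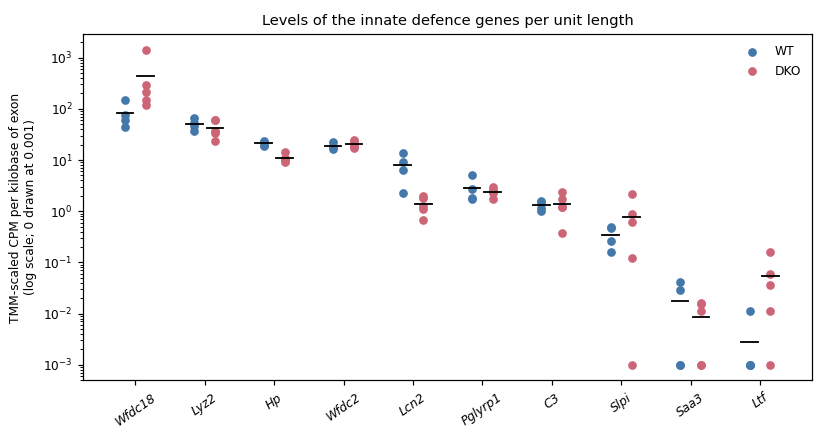
Level of each gene per kilobase of exon (TMM-scaled CPM per kilobase, log scale, with 0 drawn at 0.001) in the 4 WT and 5 DKO libraries, ordered by the WT mean, with a short line at each genotype mean. Hp and Lcn2 are the genes whose WT and DKO points do not overlap, and Ltf and Saa3 lie at the bottom.

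Hp encodes haptoglobin, whose protein carries free haemoglobin to the receptor CD163. It spans chr8:109575128-109579172 on the minus strand (GENCODE M21, GRCm38, as for the other genes), with 5 exons in its longest transcript. Hp stood at 37.1, 29.8, 31.8 and 36.5 CPM in WT 1 to WT 4 and at 15, 17.5, 15.9, 23.4 and 17.0 CPM in DKO 1 to DKO 5. Every DKO library was below every WT library, and the highest DKO library, DKO 4, was still under the lowest WT library, WT 2. The mean was 33.8 ± 3.58 CPM over WT (SD, n = 4) against 17.8 ± 3.29 CPM over DKO (SD, n = 5), and the estimate on the log2 scale was -0.93 (SE 0.14), or 1.9-fold lower in DKO. The estimate was between -1.05 and -0.87 when each library in turn was left out. In whole tissue, fewer cells that express a gene and less of its RNA in each cell cannot be told apart. Hp was among the least variable of the genes within a genotype, with a coefficient of variation of 10.6% in WT and 18.5% in DKO.

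Lcn2 encodes lipocalin 2, and it lies at chr2:32384633-32388252 on the minus strand. The 4 WT libraries had 24.3, 6.08, 36.6 and 16.8 CPM and the 5 DKO libraries 4.69, 3.25, 1.79, 5.10 and 2.90 CPM. WT varied widely, with WT 3 far above WT 2, yet WT 2 was still above DKO 4, the highest DKO library. The mean was 20.9 ± 12.8 CPM over WT (SD, n = 4) against 3.55 ± 1.35 CPM over DKO (SD, n = 5), and the log2 fold change was -2.55 (SE 0.44), or 5.85-fold lower in DKO. Ordered from the lowest, its log2 fold change was number 15 of the 13842 genes tested. Without WT 3 the log2 fold change was -2.13, and without WT 2 it was -2.85. The gap between WT 2 and DKO 4 was small beside the spread within WT, where the coefficient of variation was 61.2%.

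Hp and Lcn2 were the 2 of the 10 genes in which the genotypes did not overlap, and both were lower in DKO. Over all 13842 genes tested, every DKO library lay under every WT library for 3.51%, and above every WT library for 2.49%. With p-values adjusted over all genes (Benjamini-Hochberg), the quasi-likelihood test of edgeR called Hp and Lcn2 lower and none of the 10 higher, beside 0.462% of all genes called lower and 0.166% called higher. At an unadjusted p under 0.05 the count was 3 of the 8 genes fitted, beside 14.5% of all genes. DESeq2 called the same 2 genes lower and 0 higher, beside 2.68% and 1.77% of all genes. Since the genes were chosen by this contrast, nothing is read from these counts. The edgeR call of both genes was lost when any single library other than WT 2 or DKO 4 was left out, while DESeq2 kept it in 9 of 9 such fits for each gene.

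**Figure D2:**
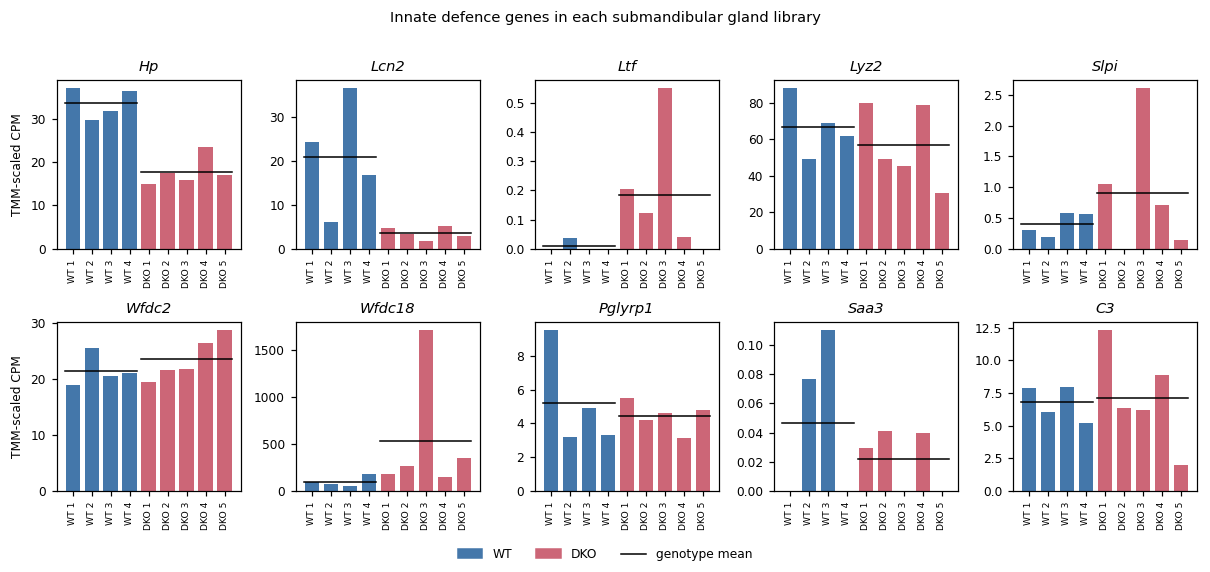
TMM-scaled CPM of each of the 10 genes in the 4 WT and 5 DKO libraries, 1 panel per gene with its own axis from 0, with a black line at the mean of each genotype. Hp and Lcn2 are lower in all 5 DKO bars, and the tall bar in the panels of Ltf, Slpi and Wfdc18 is DKO 3.

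Ltf, the gene of the iron-binding protein lactoferrin (chr9:111019271-111042767, plus strand), was barely detected. It had 0, 1, 0 and 0 counts in WT 1 to WT 4 and 7, 3, 12, 1 and 0 counts in DKO 1 to DKO 5. DKO 3 held the most and DKO 5 none, so the genotypes overlapped. After scaling for depth, the 23 DKO counts stood to the 1 WT count at a ratio of 22.6 with a 95% counting interval of 3.66 to 930, which covers counting error only, and the ratio was 13.2 without DKO 3.

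Saa3, a serum amyloid A gene (chr7:46711998-46715700, minus strand), was also near the limit of detection. It had 0, 2, 5 and 0 counts in WT and 1, 1, 0, 1 and 0 counts in DKO. The genotypes overlapped and no fold change is given, since a count of 0 allows up to 3 counts. Parts of its transcript are repeated elsewhere, with 4.6% of its windows of 50 bases shared with other genes, so the source of such few reads is uncertain.

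Among the genes that act on bacterial cell walls, Lyz2 encodes a lysozyme that macrophages make in abundance (chr10:117277331-117282321, minus strand). It stood at 87.8, 49.2, 68.6 and 61.7 CPM in WT and at 79.5, 49.3, 45.3, 78.8 and 30.5 CPM in DKO. WT 1 was the highest library and DKO 5 the lowest, and the genotypes overlapped, with a log2 fold change of -0.23 (SE 0.26). Leaving out 1 library moved the estimate between -0.39 and -0.08. Lyz2 shares 15.4% of its 50-base windows with Lyz1, so reads may be split between them, and Lyz1 had 2.70 ± 1.74 CPM over WT (SD, n = 4) against 1.95 ± 0.909 CPM over DKO (SD, n = 5). The 16 macrophage markers summed to 137 to 196 CPM in WT and 114 to 180 CPM in DKO. In WT the order of the libraries by that sum was the same as by Lyz2, with WT 1 highest and WT 2 lowest, and in DKO the highest 2 were DKO 1 and DKO 4 for both. The other DKO libraries had the reverse order, with Lyz2 lowest in DKO 5 and the marker sum lowest in DKO 2.

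Pglyrp1, a peptidoglycan recognition protein (chr7:18871331-18890459, plus strand), had 9.51, 3.17, 4.93 and 3.3 CPM in WT and 5.48, 4.2, 4.63, 3.16 and 4.79 CPM in DKO. WT 1 was well above the rest and the genotypes overlapped. The log2 fold change was -0.23 (SE 0.30), and without WT 1 it turned to 0.22. Pglyrp1 and Ltf are stored in neutrophil granules, but most markers of that cell type were near 0. Ly6g and Cxcr2 had 0 counts in every library, S100a8 at most 1 and S100a9 at most 6, while Mmp9 reached 12 and Csf3r 28. Csf3r passed the filter, at 0.275 CPM over WT and 0.541 CPM over DKO. Its log2 fold change was 0.98 (SE 0.48), and neither edgeR nor DESeq2 called it. Of 18 neutrophil markers, 14 had 3 or fewer counts in every library. The sum of the 18 markers, 4.47 to 6.94 CPM in WT and 4.77 to 7.82 CPM in DKO, was mostly Lrg1, which other cell types also express.

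C3, the central component of complement (chr17:57203970-57228136, minus strand, 41 exons), had 7.86, 6.08, 8 and 5.24 CPM in WT and 12.3, 6.33, 6.19, 8.85 and 1.96 CPM in DKO. The DKO libraries enclosed the whole WT range, from DKO 5 below to DKO 1 above. The mean was 6.79 ± 1.36 CPM over WT (SD, n = 4) against 7.12 ± 3.80 CPM over DKO (SD, n = 5). The log2 fold change of 0.09 (SE 0.36) lay between -0.20 and 0.31 over fits without 1 library. DKO 1, the library with by far the most parotid and sublingual transcripts, held the highest C3, and without it the estimate was -0.20.

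The 3 genes of the WAP domain family among the 10 differed widely in level and spread. Slpi, an inhibitor of neutrophil elastase (chr2:164354070-164389095, minus strand), was scarce, at 0.312, 0.191, 0.574 and 0.558 CPM in WT and 1.05, 0, 2.61, 0.712 and 0.145 CPM in DKO. DKO libraries lay both above and below the WT range, from no count in DKO 2 to 57 counts in DKO 3. The log2 fold change was 1.13 (SE 0.84) and shrank to 0.31 without DKO 3. With limma-voom it took the opposite sign, at -0.54.

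Wfdc2, the gene of human epididymis protein 4, a product of airway and glandular epithelium (chr2:164562413-164568510, plus strand), varied little, with a coefficient of variation of 13% in WT and 16.1% in DKO. It had 18.9, 25.4, 20.5 and 21.0 CPM in WT and 19.4, 21.5, 21.8, 26.4 and 28.6 CPM in DKO. The libraries of both genotypes lay in 1 narrow band, with DKO 5 at its top. The log2 fold change was 0.13 (SE 0.14), between 0.05 and 0.22 over fits without 1 library, so a change as large as that of Hp was not seen.

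Wfdc18, a small secreted WAP protein (chr11:83709015-83711348, plus strand), was the most abundant of the 10, with a coefficient of variation of 54.3% in WT and 126% in DKO. It had 93.3, 75, 54.2 and 178 CPM in WT and 178, 263, 1710, 145 and 351 CPM in DKO. DKO 3 stood far above all others, while DKO 4 lay under WT 4, so the genotypes overlapped. The mean was 100.2 ± 54.4 CPM over WT (SD, n = 4) against 529 ± 665 CPM over DKO (SD, n = 5), and the log2 fold change was 2.40 (SE 0.72). With all libraries and the filter on low counts, neither edgeR nor DESeq2 called it, and edgeR did so with no filter. Without DKO 3 the log2 fold change was 1.23.

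**Figure D3:**
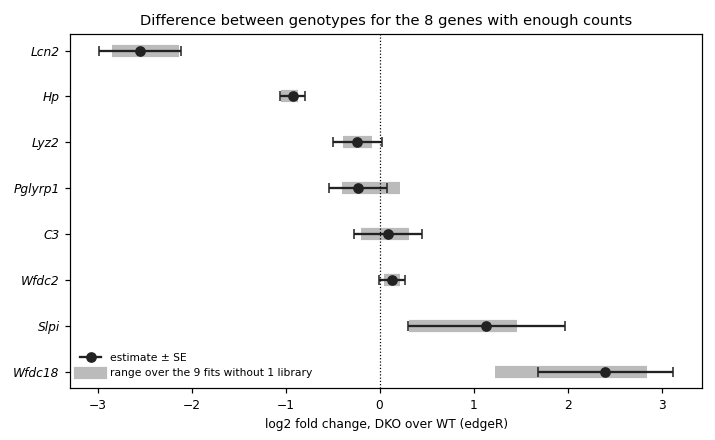
Log2 fold change (DKO over WT, edgeR) of the 8 genes with enough counts, as points with bars of 1 SE, over grey bands for the range of the 9 fits that each leave out 1 library. The bands of C3 and Pglyrp1 cross 0 and those of the other genes do not, though the SE bars of Lyz2 and Wfdc2 also reach 0. The band of Wfdc18 runs from 1.23 to 2.84.

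Across the 8 genes fitted, 4 log2 fold changes were negative and 4 positive, with a median of -0.07. Over all genes tested, 47.5% were negative and the median was 0.01. After removal of the genotype means, Hp and Lcn2 followed each other only loosely over the 9 libraries, with a Pearson correlation of 0.403, whereas Lyz2 and C3, the pair with the highest value, reached 0.884. These correlations share libraries and scaling and are given as a description.

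The profile of Lcn2 over single libraries was set beside Egf, a growth factor made by granular ducts and a marker of the duct list. Egf stood at 8260, 3520, 8120 and 5050 CPM in WT and at 2180, 1370, 377, 2690 and 1670 CPM in DKO. As with Lcn2, WT 2 was the lowest of the WT libraries, WT 1 and WT 3 the highest, DKO 4 the highest of the DKO libraries and DKO 3 the lowest. Egf was chosen after its values were seen, and the duct markers did not all behave so. With genotype means removed, the correlation of Lcn2 with the marker was 0.789 for Egf and 0.774 for Muc13. It was 0.03 for Krt7, 0.139 for Krt19 and -0.934 for Klk1, over 9 libraries that share their scaling. Markers of macrophages also ran with Lcn2, at 0.818 for Cd68, 0.656 for Adgre1, 0.619 for C1qb, 0.609 for C1qa and 0.58 for Csf1r. The profile was thus not particular to duct markers. Wfdc18 ran opposite to Lcn2 at the extreme, since DKO 3 held its highest level. Hp showed no such dip in DKO 3, at 15.9 CPM within the range of the other DKO libraries.

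**Figure D4:**
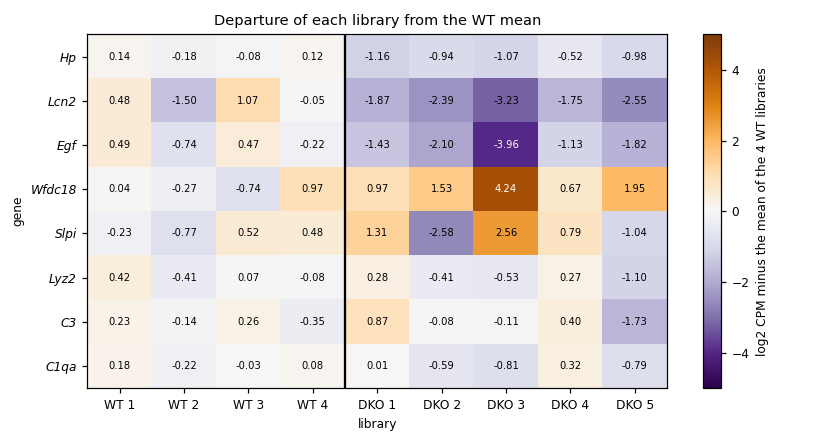
Log2 CPM minus the mean of the 4 WT libraries for 6 of the defence genes, the duct marker Egf and the macrophage marker C1qa, in each of the 9 libraries, with colour and a printed value per cell. Lcn2 and Egf share their lowest value in DKO 3 (-3.23 and -3.96), where Wfdc18 and Slpi are highest, and Lyz2 and C3 are lowest in DKO 5.

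By the correlation of log2 CPM over all 9 libraries, the genes most like Hp were Fam57a (r = 0.989, Spearman's rho 0.983), Fmod (r = 0.969), Shisa4 (r = 0.968), Postn (r = 0.965) and Pdgfa (r = 0.963). With genotype means removed they were Nmt2, Stxbp5l, Hcls1, Fam57a and Lysmd3, at r of 0.966 to 0.928, so Fam57a alone was in both sets. For Lcn2 the nearest genes were Fbxw7 (r = 0.994, rho 0.983), Nmi (r = 0.987), Renbp (r = 0.986), Tmprss2 (r = 0.984) and Man1a (r = 0.981). All of these but Man1a were again among the nearest 5 with genotype means removed, together with Scpep1 (r = 0.961). For Wfdc18, added after its values were seen, the nearest gene was Rps16-ps2 in both forms (r = 0.987 and 0.991). These are the top of 13842 genes ranked over 9 libraries, so high values are found in any case.

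The other genes of innate defence were read from 6 lists that together held 167 genes, of which 85 passed the filter. In the fit over all genes, edgeR called 1 of them lower, Duoxa2, and 0 higher. DESeq2 called 4 lower (Duoxa2, Duox2, Cd14 and Anxa2) and 1 higher (Azgp1), against the backgrounds of 2.68% and 1.77% given above. Of the 85, 52 log2 fold changes were negative and the median was -0.10.

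Duoxa2, the maturation factor of the hydrogen peroxide enzyme DUOX2, stood at 34.8 to 40.8 CPM in WT and 15.7 to 27.3 CPM in DKO, with a log2 fold change of -0.82 (SE 0.16, edgeR adjusted p = 0.0478). Its partner Duox2 was lower in every DKO library too, at 4.90 to 8.82 CPM against 10.3 to 15.9 CPM, a log2 fold change of -0.79 (SE 0.19, DESeq2 adjusted p = 0.00859, edgeR adjusted p = 0.0776). Lpo, lactoperoxidase, which uses hydrogen peroxide to oxidise thiocyanate, was at 402 to 791 CPM in WT and 736 to 1440 CPM in DKO, where the genotypes overlapped and neither tool called it. Azgp1, zinc alpha-2-glycoprotein, was called higher by DESeq2 alone, at a log2 fold change of 1.42 (SE 0.40, DESeq2 adjusted p = 0.00784, edgeR adjusted p = 0.121), and its genotypes overlapped. Of the 10 epithelial antimicrobial genes fitted, 8 had negative values, with a median of -0.19. Cst3 and Prdx5, which are among the 3 most abundant of this list, had log2 fold changes of -0.52 (SE 0.19) and -0.03 (SE 0.10). S100a8, Camp and Defb1 were among 13 genes of this list with 3 or fewer counts in every library.

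In the acute phase list, Cd14, the co-receptor for lipopolysaccharide, was the gene that DESeq2 called lower, at 42.8, 18.8, 36.0 and 26.6 CPM in WT and 18.1, 13.9, 16.3, 18.8 and 15.6 CPM in DKO. DKO 4 reached the level of WT 2, the WT library that was also lowest for Lcn2. Its log2 fold change was -0.91 (SE 0.20, DESeq2 adjusted p = 0.00261, edgeR adjusted p = 0.0583). The list had 8 of 13 values negative with a median of -0.03. The ferritin genes Fth1 and Ftl1 had log2 fold changes of -0.07 (SE 0.11) and -0.29 (SE 0.14), Mt1, a metallothionein, -0.03 (SE 0.15), and Trf, transferrin, -0.61 (SE 0.28), none of them called. Saa1, Saa2, Orm1 and Fga, acute phase genes of liver, were among 12 genes with 3 or fewer counts in every library.

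The complement list had 19 of 23 values negative and a median of -0.28, with 0 called by edgeR or DESeq2 and 2 at an unadjusted p under 0.05, a threshold that 14.5% of all genes passed. The most abundant were Cd59a, which blocks the membrane attack complex, with a log2 fold change of -0.54 (SE 0.21), C1qb with -0.44 (SE 0.18) and Serping1, the C1 inhibitor, with -0.11 (SE 0.25). C7 and Cfi had the largest values, -0.80 (SE 0.57) and -0.73 (SE 0.65), on fewer than 3 CPM. C3, which is not counted in the list, had 0.09 (SE 0.36). C1qb is also a macrophage marker, and 13 of the 15 macrophage markers fitted had negative values, with a median of -0.30.

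The list of inducing cytokines, their receptors and transcription factors had 26 genes fitted, 11 of them negative, with a median of 0.04 and 0 called by either tool (3 at an unadjusted p under 0.05, beside 14.5% of all genes). Lifr, the receptor chain for leukaemia inhibitory factor, and the epithelial transcription factors Ehf and Elf3 were the most abundant, with log2 fold changes of -0.03 (SE 0.14), 0.05 (SE 0.10) and -0.18 (SE 0.17). Bcl3 and Il6ra had the largest values, -0.77 (SE 0.29) and -0.60 (SE 0.31). The cytokine genes Il17a, Il22, Csf3 and Osm had 3 or fewer counts in every library. Il1a, Il6, Tnf, Il1b and Lif reached 12, 9, 7, 6 and 6 counts in a library, too low for the fit. Mean CPM in WT and DKO was 0.173 and 0.0165 for Il6 and 0.149 and 0.0447 for Il1b. It was 0.0794 and 0.155 for Il1a, 0.059 and 0.098 for Tnf, and 0.00552 and 0.0644 for Lif.

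Among 10 receptors and targets of the defence proteins, Anxa2 was called lower by DESeq2 (-0.61, SE 0.13, DESeq2 adjusted p = 0.0021, edgeR adjusted p = 0.0568), and its genotypes did not overlap. Slc22a17, a receptor for lipocalin 2, stood at 11.4 ± 0.823 CPM over WT (SD, n = 4) against 13.5 ± 1.48 CPM over DKO (SD, n = 5). Tfrc, the transferrin receptor, and Itgam had log2 fold changes of 0.39 (SE 0.49) and 0.44 (SE 0.40). The haptoglobin receptor Cd163, a macrophage marker, had 1.64 CPM in WT and 1.78 CPM in DKO. In the WAP list, Wfdc12 outweighed every other gene, with a mean of 7308 CPM per kilobase in WT against 82.1 for Wfdc18, and its log2 fold change was 0.24 (SE 0.30). The log2 fold changes of Wfdc17, Wfdc3 and Wfdc15b were 0.45 (SE 0.34), -1.14 (SE 0.53) and 0.09 (SE 0.30). Spint1, a Kunitz-type inhibitor that was placed on this list without having a WAP domain, had -0.31 (SE 0.22), and 11 of the 21 genes on the list had 3 or fewer counts in every library.

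**Figure D5:**
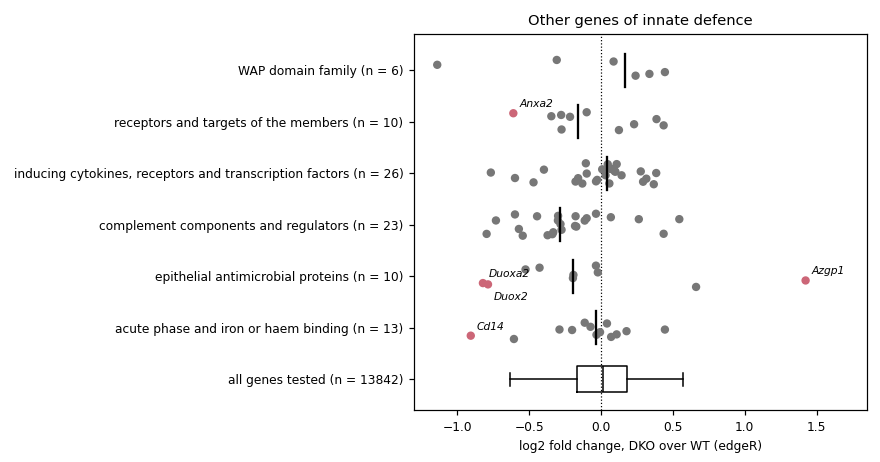
Log2 fold change (DKO over WT, edgeR) of each fitted gene in the 6 lists of other defence genes, with a black line at the median of a list, and the named points in red called by edgeR or DESeq2. The box below shows all 13842 genes tested (median, quartiles and the range from the 5th to the 95th percentile), and the complement list has the lowest median, -0.28.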

How the data were processed

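Total RNA of 9 SMGs from male mice was used by the authors for unstranded Nextera XT libraries, read on a HiSeq2500. Processing notes of the submitters name STAR 2.5.2a, DESeq2, edgeR and limma and the builds GRCh38, GRCm38 and mm10 without a role; the counting tool and annotation were not given in the sources used here. As deposited by the authors, raw read counts covered 48733 rows (48709 genes, 17 transgene rows and 7 spike-in rows), and a filtered table held the same counts for 17562 rows. The authors also deposited a table that holds normalized signal: each filtered count over the TMM-adjusted size of its library, as CPM, and all 158058 values gave back whole counts within 0.01. Saa3 had no row there and was read from the raw counts. Without strand, reads of overlapping antisense genes could not be told apart, but no annotated gene on the opposite strand overlapped the 10 genes.

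Raw counts were fitted in R 4.3.3 with edgeR 4.0.16 (TMM, filterByExpr with minimum count 10 and minimum total 15, quasi-likelihood test, genotype as the single term), which left 13842 genes, with a common biological coefficient of variation of 0.235. A gene was called at a Benjamini-Hochberg adjusted p under 0.05 over all genes. SE is the ratio of the log2 fold change to the root of F, and CPM values are TMM-scaled from these fits. DESeq2 1.42.0 and limma 3.58.1 (voom) were alternatives. Replicates are separate glands; that each came from its own mouse is not stated, so p-values measure the spread between glands. Total counts of 17053747 to 37870519 set a floor of 3 counts, or 0.0663 to 0.218 CPM. Gene models came from GENCODE M21 and promoters from RefSeq, read with Python 3.11.15. The fits were tested on simulated data. The genes named are the 10, every list gene called by edgeR or DESeq2, the 3 most abundant and the 2 with the largest change in each list, and the 5 nearest to Hp and Lcn2 in profile; Lyz1, Cd163 and low genes were named after their values were seen. The 10 genes and all lists were chosen with earlier results of these data known. Marker lists are given mainly as sums.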

Additional observations from a re-analysis of the deposited data

Results flagged for a closer look

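Within a genotype, 1 library was past the limit for an outlying value in 2 of the 20 groups of values examined (10 genes in 2 genotypes), by the gap to the nearest library over the range of the group (Dixon's ratio). Chance gives about 1 in 20. For Wfdc18 in DKO the ratio was 0.868, above the critical value of 0.71 for 5 samples, from the 1710 CPM of DKO 3. For Ltf in WT the ratio was 1, but a single count in WT 2 beside 0 in the other WT libraries fixes it at that value, and 3 counts or fewer cannot be told from 0.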

How the results depend on the processing

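Over all genes, 87 were called by edgeR with TMM factors. The count was 5 with upper-quartile factors, 616 with DESeq2, 148 with limma-voom and 347 with no filter, and 0 to 441 when each library in turn was left out. Of the 10 defence genes, 2 were called; the count was 0 with upper-quartile factors, 1 with limma-voom and 0 to 2 over the fits without 1 library, and both genes were called when WT 2 or DKO 4 was left out. Of the 85 genes of the other defence lists, 1 was called, against 0 with upper-quartile factors, 5 with DESeq2, 2 with limma-voom, 5 with no filter and 0 to 5 without 1 library. The edgeR adjusted p of both Hp and Lcn2 was 0.0478 with TMM factors and 0.0514 with upper-quartile factors, on either side of the threshold of 0.05. Their log2 fold changes with upper-quartile factors were -0.92 and -2.54. The cause of the changes in these counts was not tested. With the replicate block, 0 genes were called over all genes, among the 10 and in the lists (2024 over all genes at an unadjusted p under 0.05, against 2006 without the block), while the log2 fold changes were -0.93 for Hp and -2.29 for Lcn2. Replicate numbers were not taken to pair the samples. Deviations of same-numbered libraries correlated at 0.15, 0.298, 0.074 and 0.014, so that not every pair was above 0.1. WT 1 and WT 2 correlated best with the DKO library of their own number, and WT 3 and WT 4 with DKO 5. Sample titles also carry other numbers, whose meaning was not given in the sources used here. Grouping by those numbers was not tested, so the replicate block cannot show whether libraries shared another grouping.

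Hp and Lcn2 kept their direction in every fit, Hp between -1.05 and -0.87 and Lcn2 between -2.85 and -2.13 in edgeR without 1 library. With no filter, Wfdc18 was called as well (2.40), and DESeq2 called it in 3 of 9 fits without 1 library, a set of fits added after seeing the data. The sign turned for Slpi with limma-voom (-0.54), for Pglyrp1 without WT 1 (0.22 in edgeR and in DESeq2, in a range from -0.40), and for C3, in a range up to 0.31, without WT 4 (-0.02, and -0.03 in DESeq2), without DKO 1 (-0.20 in both) and without DKO 4 in DESeq2 (-0.01). On the log2(CPM + pseudocount) scale the difference of Lcn2 was -2.22 with a pseudocount of 0.5 and -1.46 with 5. Depth limits Ltf and Saa3, for which 3 counts or fewer cannot be told from 0.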
